A study of Mus musculus with 18 samples.

Results

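The Cyp2a and Cyp2b genes considered here are 6 cytochrome P450 genes of the mouse, Cyp2a4, Cyp2a5, Cyp2a12, Cyp2b9, Cyp2b10 and Cyp2b13. They were chosen by name, not by their values, and a probe was assigned to a gene when the transcript accession on the array mapped to its symbol in RefSeq. Probes were matched to 5 of the 6 genes, among 32451 genes on the array; no probe was matched to Cyp2a5, which is not analysed here. Cyp2a4 had 2 probes and each of the other 4 genes had 1.

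The liver samples came from male C57BL/6 mice, 6 weeks old, which carried no genetic change named in the labels. After 12 h without food the mice were given either saline (control) or monocrotaline by stomach tube, at 270 mg/kg (MCT 270) or 330 mg/kg (MCT 330), with 8 mice in each group. Livers were taken 48 h after the dose, and messenger RNA was profiled on 9 single-colour Agilent arrays, 3 per group. Monocrotaline, a pyrrolizidine alkaloid of plants, is converted by liver P450 enzymes into a reactive pyrrole.

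Cytochrome P450 enzymes of the CYP2A and CYP2B families are membrane proteins of the endoplasmic reticulum of hepatocytes, which oxidise steroids, drugs and plant compounds with electrons passed on by P450 reductase. Cyp2b10 is the standard reporter gene of the nuclear receptor CAR (Nr1i3), and Cyp2b9, Cyp2b13 and Cyp2a4 are known as female-predominant genes of mouse liver under the control of growth hormone. Cyp2a4 and Cyp2a5 encode closely related enzymes, a steroid 15-alpha-hydroxylase and a coumarin 7-hydroxylase. Cyp2a12 encodes a testosterone hydroxylase.

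In RefSeq (GRCm38.p6) the 6 genes lie on the plus strand of chromosome 7 within a single P450 cluster, in the order Cyp2b10, Cyp2b13, Cyp2b9, Cyp2a4, Cyp2a5 and Cyp2a12. All 6 were found in the RefSeq promoter table. Windows of 250 bases before the transcript start of that table were compared. For Cyp2b13 and Cyp2b9 that start lies 107 and 59 bases inside the gene span of the RefSeq gene table, and their printed sequences stop where the span begins, after 143 and 191 bases. The sequences of 5 genes are shown because close relatives in this cluster had near-identical upstream sequence, while the probes of Cyp2b9 and Cyp2b13 gave different patterns over the same arrays. Capitals mark TTATGCAA on either strand (read as TTGCATAA on the opposite strand), a word that resembles the sites bound by C/EBP and PAR bZIP transcription factors, and, in Cyp2b9 and Cyp2b13 only, the bases at which these 2 sequences differ. The printed stretches are chr7:26173159-26173349 for Cyp2b9, chr7:26061245-26061387 for Cyp2b13, chr7:25897408-25897657 for Cyp2b10, chr7:26306942-26307191 for Cyp2a4 and chr7:26835089-26835338 for Cyp2a5.
Cyp2b9: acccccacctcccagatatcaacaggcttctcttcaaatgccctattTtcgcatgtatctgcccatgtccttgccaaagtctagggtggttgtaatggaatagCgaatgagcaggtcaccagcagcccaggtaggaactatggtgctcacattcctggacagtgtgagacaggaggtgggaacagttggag
Cyp2b13: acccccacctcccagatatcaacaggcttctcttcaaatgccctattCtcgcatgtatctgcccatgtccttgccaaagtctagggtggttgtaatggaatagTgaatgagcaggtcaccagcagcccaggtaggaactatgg
Cyp2b10: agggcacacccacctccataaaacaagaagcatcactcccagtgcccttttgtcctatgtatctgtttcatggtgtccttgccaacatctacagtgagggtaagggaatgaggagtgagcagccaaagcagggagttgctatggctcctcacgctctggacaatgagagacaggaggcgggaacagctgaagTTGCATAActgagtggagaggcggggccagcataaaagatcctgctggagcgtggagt
Cyp2a4: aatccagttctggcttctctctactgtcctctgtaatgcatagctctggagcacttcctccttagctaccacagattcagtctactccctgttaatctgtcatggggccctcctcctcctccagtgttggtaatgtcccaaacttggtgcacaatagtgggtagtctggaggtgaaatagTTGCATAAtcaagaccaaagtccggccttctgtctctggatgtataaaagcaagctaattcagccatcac
Cyp2a5: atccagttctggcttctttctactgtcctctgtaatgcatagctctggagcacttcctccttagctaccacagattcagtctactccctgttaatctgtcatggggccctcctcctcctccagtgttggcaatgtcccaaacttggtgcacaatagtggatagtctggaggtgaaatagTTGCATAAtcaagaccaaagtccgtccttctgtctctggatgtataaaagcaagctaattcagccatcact

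The windows of Cyp2b9 and Cyp2b13 were identical at 248 of 250 bases, with the substitutions T48C and C104T (Cyp2b9 first, positions counted from the 5′ end of the window). Of these windows, 59 bases for Cyp2b9 and 107 for Cyp2b13 lie inside the gene span. Cyp2a4 and Cyp2a5 were identical at 245 of 251 aligned positions, 97.6%. Cyp2b10 shared 70.0% of aligned positions with both Cyp2b9 and Cyp2b13, and Cyp2a12 shared no more than 49.8% with any other member. The word TTATGCAA, searched on both strands, occurred in Cyp2a4, Cyp2a5 and Cyp2b10 and in 0.69% of 32851 RefSeq windows of the same length. AGGTCA, the half-site of many nuclear receptors, occurred on the plus strand at the same place in Cyp2b9 and Cyp2b13, 138 bases before the start of the promoter table, and in 14.02% of all windows on either strand. Neither the antioxidant response element core TGACNNNGC (10.16% of windows) nor the E-box CACGTG (6.02%) occurred in any of the 6. A match is a description of these letters in this window, and binding was not measured.

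Probe sequences were not used here. A Cyp2a4 probe may therefore also bind Cyp2a5 transcripts, and Cyp2b9 and Cyp2b13 transcripts may share signal, and these cannot be told apart. The Cyp2b9 and Cyp2b13 probes gave different patterns over the arrays, and whether part of their signal is shared was not tested.

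No spot was saturated; depending on the array, 64.0% to 80.9% of probes were well above background, and the signal at the 75th percentile was 498.2 to 703. The labels name each array as a separate mouse. Control replicates 2 and 3, MCT 270 replicates 2 and 3, and all 3 MCT 330 replicates nevertheless differed from one another by a robust SD of 0.0416 to 0.0793 log2 units, less than the 0.0942 between repeated spots on an array, while the remaining pairs differed by 0.237 to 0.331. Arrays that differed by less than this noise were averaged, leaving 2 samples each of the control and MCT 270 groups and a single one of MCT 330. That sample was assumed in every test to vary like the others, and its arrays were scanned apart from all others, so that scan and dose cannot be told apart for it. Nothing in the labels says how the arrays came to be alike, and p-values measure only the spread between these samples. All 9 hepatocyte markers on the array, such as albumin, were well above background. Of the Y-linked genes, Ddx3y, Eif2s3y and Uty were well above background on 9 of 9 arrays and Kdm5d on 5. Xist, which is expressed from the inactive X chromosome of females, was well above background on 3 of 9 arrays, at levels of at most -5.10 on the log2 scale explained next.

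Levels are given as log2 of the processed signal relative to the 75th percentile of signal on the same array, so that 0 is the level of a moderately abundant transcript; levels of different genes are not comparable, because probes differ in brightness. All 5 measured members were well above background on all 9 arrays.

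Cyp2a4 stood at levels of 4.79, 5.62 and 5.57 in control replicates 1, 2 and 3, at 7.25, 6.85 and 6.83 at MCT 270, and at 5.84, 5.77 and 5.74 at MCT 330. All MCT 270 arrays were above all others, and the MCT 330 arrays lay just above the highest control. The second Cyp2a4 probe gave the same order, with control levels of 4.04, 4.68 and 4.67, MCT 270 levels of 6.60, 6.27 and 6.23, and MCT 330 levels of 5.13 and 5.10 in replicates 2 and 3. Its spot on MCT 330 replicate 1 was marked as non-uniform and was left out.

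Cyp2b9 stood at -2.25, 0.64 and 0.67 in the control replicates, at 1.60, 1.32 and 1.29 at MCT 270, and at -0.18, -0.17 and -0.16 at MCT 330. Control replicate 1 was the lowest of all arrays, and the MCT 330 arrays lay between it and the other controls. The MCT 270 arrays were again the highest.

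Cyp2b10 stood at 2.26, 5.23 and 5.22 in the control replicates, at 4.75, 4.11 and 4.09 at MCT 270, and at 2.97, 3.00 and 2.96 at MCT 330. The control arrays spanned the whole range, from the lowest value to the highest, and both treated groups lay inside it.

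Cyp2b13 stood at -0.15, -0.01 and -0.04 in the control replicates, at 1.70, 0.18 and 0.18 at MCT 270, and at -0.59, -0.64 and -0.67 at MCT 330. Here the controls were close together and MCT 270 replicate 1 stood apart. The 3 groups did not overlap.

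Cyp2a12 stood at 6.80, 7.15 and 7.15 in the control replicates, at 6.76, 6.89 and 6.88 at MCT 270, and at 6.58, 6.71 and 6.61 at MCT 330. It varied least of the 5 genes, and the MCT 330 arrays were the lowest.

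**Figure D1:**
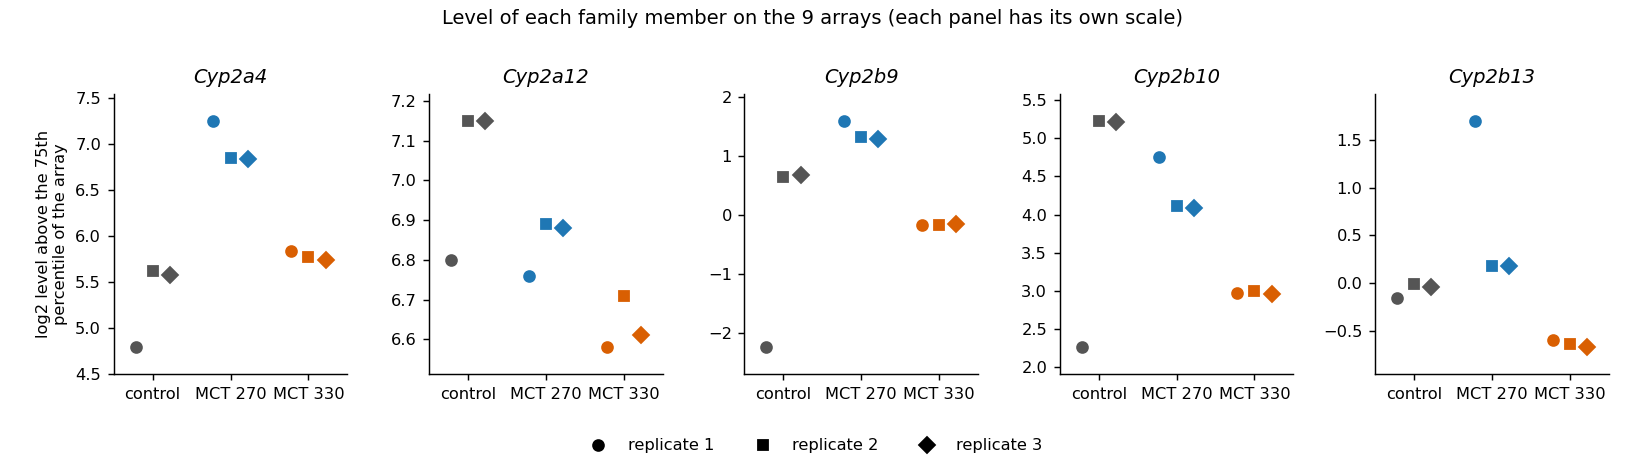
Level of Cyp2a4, Cyp2a12, Cyp2b9, Cyp2b10 and Cyp2b13 on each of the 9 arrays, as log2 of the signal relative to the 75th percentile of the array, with symbols for the replicates and a separate vertical scale in each panel. Control replicate 1 lies at the bottom of the Cyp2b9 (-2.25) and Cyp2b10 (2.26) panels, and the MCT 330 points lie below all MCT 270 points in all 5 panels.

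At 270 mg/kg Cyp2a4 was 1.85 ± 0.33 log2 units above the control (SE, 2 samples against 2; 95% interval 0.99 to 2.71), a fold change of 3.61. It did not pass the threshold of the limma fit over all genes (adjusted p = 0.114, unadjusted p = 0.00297). Cyp2b9 lay 2.25 ± 0.96 above the control (adjusted p = 0.308) and Cyp2b13 1.03 ± 0.52 above it (adjusted p = 0.367). Cyp2b10 differed by 0.68 ± 1.00 (adjusted p = 0.747) and Cyp2a12 by -0.15 ± 0.19 (adjusted p = 0.710).

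None of the 5 members was called at 270 mg/kg by limma at an adjusted p under 0.05, and nor was any of the 24814 genes tested (0%). At an unadjusted p under 0.05 Cyp2a4 alone of the members passed, against 18.6% of all genes. Both MCT 270 samples lay above both control samples for 3 of 5 members, Cyp2a4, Cyp2b9 and Cyp2b13, against 25.4% of all genes; none of the 5 had both below, against 27.4%. With the 9 arrays counted as 9 samples, as they are labelled, Cyp2a4 passed (1.65 ± 0.22, adjusted p = 0.000882), as did 38.7% of all genes.

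The difference between MCT 270 and control was also taken within each scan session that held both groups. For Cyp2a4 it was 1.85 in the first session, with 2 arrays per group, and 1.26 in the second, with 1 array per group. The corresponding values were 2.27 and 0.62 for Cyp2b9, and 1.02 and 0.21 for Cyp2b13. Cyp2b10 went from 0.68 to -1.13, and Cyp2a12 lay at -0.15 and -0.27. The first session held replicates 1 and 2 of both groups, so that its values nearly repeat the fit above by construction. The second session held neither control replicate 1 nor MCT 270 replicate 1. It held replicate 3 of each group, which the fit averaged with replicate 2. Neither session is therefore a separate check of the fit.

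At 330 mg/kg Cyp2a4 lay 0.59 ± 0.40 log2 units above the control (1 sample against 2; adjusted p = 0.305) and Cyp2b9 0.63 ± 1.18 above it (adjusted p = 0.705). Cyp2b10 lay at -0.77 ± 1.22 (adjusted p = 0.654), Cyp2b13 at -0.54 ± 0.64 (adjusted p = 0.541) and Cyp2a12 at -0.34 ± 0.24 (adjusted p = 0.317). The 95% intervals were wide, reaching from -3.98 to 2.44 for Cyp2b10, and they do not show that the genes stayed at their control level. The median over all genes was -0.25 in this comparison; relative to it Cyp2a12 lay at -0.09. Under quantile normalization, which brought that median to -0.05, Cyp2a12 lay at 0.08, on the other side of 0.

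None of the 5 members was called at 330 mg/kg by limma, against 33.4% of all genes tested, and none at an unadjusted p under 0.05, against 47.2%. The MCT 330 sample lay above both controls for 1 member, Cyp2a4, against 32.1% of all genes. It lay below both for 2 members, Cyp2a12 and Cyp2b13, against 54.5%. With control replicate 1 left out, Cyp2b10 lay at -2.25 and Cyp2b9 at -0.82 in place of 0.63. That fit sets 1 control sample against 1 MCT 330 sample and takes the spread from the MCT 270 pair alone, with 1 residual degree of freedom. With 9 arrays as 9 samples Cyp2a12 passed (-0.40 ± 0.11, adjusted p = 0.00918), beside 73.1% of all genes.

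Between the doses, all 5 members were lower at MCT 330 than in both MCT 270 samples, against 56.0% of all genes. None was higher, against 31.1%. The median over all genes was -0.23 in this comparison, and relative to it Cyp2a12 lay at 0.05, on the other side. The differences were -1.26 ± 0.40 for Cyp2a4 (adjusted p = 0.0876), -1.57 ± 0.64 for Cyp2b13 (adjusted p = 0.144), -1.62 ± 1.18 for Cyp2b9 (adjusted p = 0.369), -1.45 ± 1.22 for Cyp2b10 (adjusted p = 0.440) and -0.19 ± 0.24 for Cyp2a12 (adjusted p = 0.613). None was called by limma, against 22.1% of all genes, and only Cyp2a4 had an unadjusted p under 0.05 (0.0282), against 39.0%. Without control replicate 1 the differences of Cyp2a4 (-1.26) and Cyp2b9 (-1.62) were the same, again with the spread of the MCT 270 pair alone. With normexp background correction and quantile normalization Cyp2a4 passed in all 3 comparisons, with adjusted p-values of 0.0430, 0.0382 and 0.0469 in the order given here. These 3 calls are not read as particular to Cyp2a4. The share of all genes called under that setting is not set beside them here. With 9 arrays as 9 samples Cyp2a4 (-1.19 ± 0.22, adjusted p = 0.00166) and Cyp2b13 (-1.32 ± 0.37, adjusted p = 0.0131) passed, beside 65.3% of all genes.

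**Figure D2:**
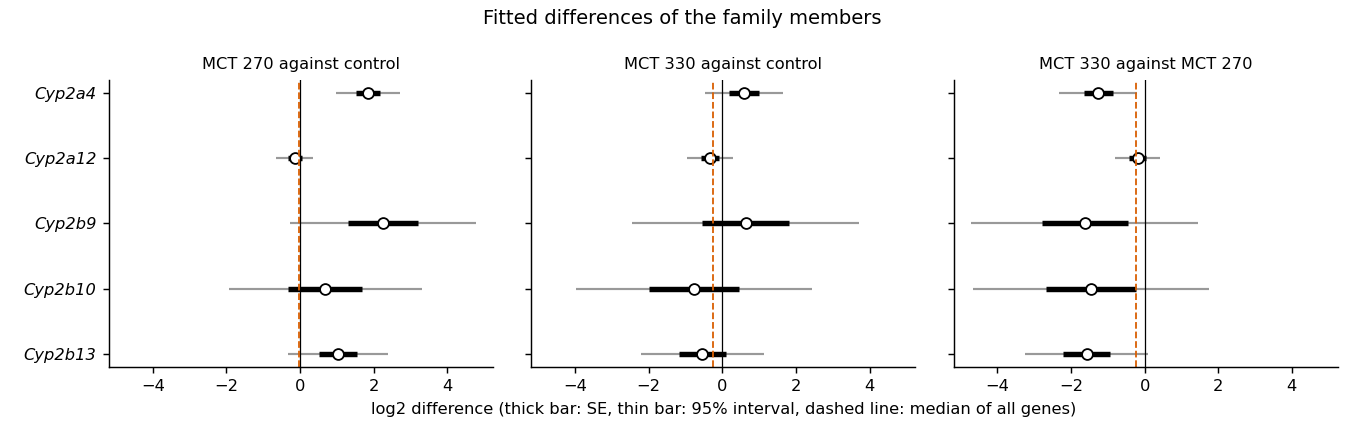
Fitted log2 differences of the 5 members in the 3 comparisons, with the SE as a thick bar, the 95% interval as a thin bar and the median of all genes as a dashed line. Cyp2a4 at MCT 270 (1.85) has an interval that stays above 0, and the intervals of Cyp2b9 and Cyp2b10 span 0 in every panel.

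The 2 control samples differed widely in some members. Control replicate 1 lay below the mean of replicates 2 and 3 by 2.96 log2 units for Cyp2b10, a 7.80-fold gap, and by 2.90 for Cyp2b9, a 7.46-fold gap. Each was larger than the gap of 99.8% of 24808 genes, whose median was 0.25. Cyp2a4 differed by -0.80, more than 90.0% of genes, Cyp2a12 by -0.36 and Cyp2b13 by -0.13. Cyp2b9 and Cyp2b13, whose windows around the start differ at 2 of 250 bases, thus differed widely in this respect. In the MCT 270 group the order of this pair was the opposite: replicate 1 lay 1.52 above the others for Cyp2b13, more than 98.8% of genes, and 0.29 for Cyp2b9.

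Other genes with a known sex bias in mouse liver also separated the control samples. All 22 male-biased genes measured were higher in control replicate 1 than in replicates 2 and 3, by 0.33 for Ugt2b38 to 3.89 for the fatty acid elongase Elovl3. All 17 other female-biased genes had negative differences there, with a median of -1.68. These ran from -0.01 for Ntrk2 and -0.05 for Fmo2, almost no difference, to -6.16 for the sulfotransferase Sult2a2. Of all genes, 51.3% were higher in control replicate 1. Of 28 other targets of CAR and its relative PXR, 25 were lower there, with a median of -0.38. The part of these differences in the results above was not tested beyond leaving that array out. Bulk tissue was measured, in which fewer cells of a type and less RNA per cell cannot be told apart.

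**Figure D3:**
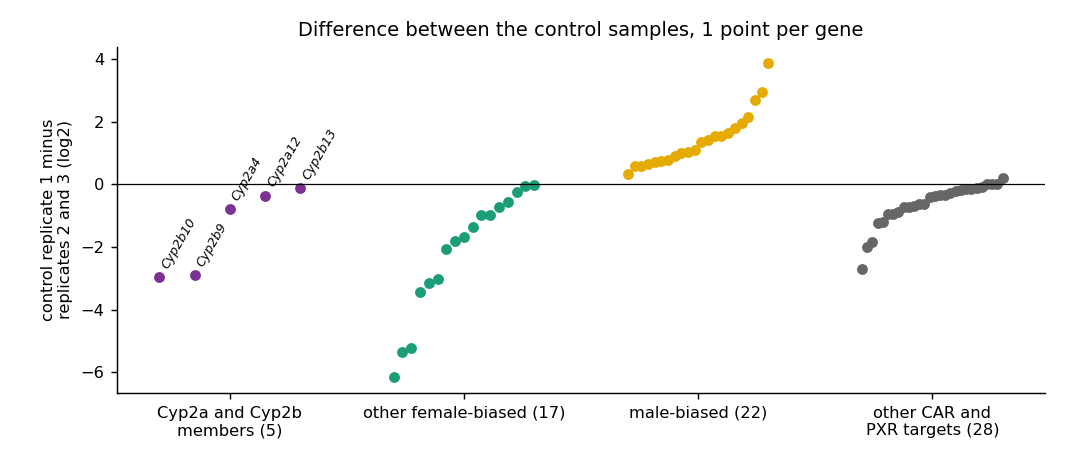
Difference between control replicate 1 and the mean of control replicates 2 and 3 in log2 units, with 1 point per gene, for the 5 members, 17 other female-biased genes, 22 male-biased genes and 28 other CAR and PXR targets. All 5 members lie below 0, from Cyp2b10 (-2.96) and Cyp2b9 (-2.90) to Cyp2b13 (-0.13). So do all the other female-biased genes and 25 of the 28 other CAR and PXR targets, while all male-biased genes lie above 0.

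At MCT 330 limma called 23.9% of all genes lower and 9.50% higher, and the counts of the gene lists that follow are read against these shares. Upstream of Cyp2b10, the receptor CAR itself (Nr1i3) stood at levels of 2.98, 2.93 and 2.95 in the controls, 2.83, 1.98 and 1.95 at MCT 270, and 0.57, 0.58 and 0.54 at MCT 330. Unlike Cyp2b10, it was even across the controls. It fell by 2.39 ± 0.39 log2 units at MCT 330 (adjusted p = 0.0156) and lay at -0.56 ± 0.32 at MCT 270 (adjusted p = 0.409). Its partners in the receptor dimer, Rxra (-1.16 ± 0.20, adjusted p = 0.0177) and Rxrb (-0.83 ± 0.22, adjusted p = 0.0472), also fell at MCT 330. These 3 were the only ones called among 15 genes of CAR, PXR and their partners, whose median was -0.30 against -0.25 over all genes, and a count of 3 of 15 is near the share of all genes. PXR (Nr1i2) lay at -0.61 ± 0.31 (adjusted p = 0.194).

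Among 28 other CAR and PXR targets, 7 fell and 3 rose at MCT 330, with a median of -0.51 against -0.25 over all genes. Both counts are near the shares of all genes and are not a result about these targets. The P450 genes Cyp2c54 (-2.45), Cyp2c37 (-2.41), Cyp2c50 (-2.35) and Cyp2c29 (-1.63) fell, with adjusted p-values of 0.00946 to 0.0109, as did the drug-metabolising Cyp3a11 (-1.0, adjusted p = 0.0466) and the carboxylesterases Ces2a (-2.30, adjusted p = 0.0119) and Ces2c (-1.10, adjusted p = 0.0334). The 3 that rose were glutathione S-transferases, Gsta2 (1.75, adjusted p = 0.0224), Gstm3 (1.46, adjusted p = 0.0330) and Gsta4 (0.87, adjusted p = 0.0484), which conjugate reactive compounds and are also known targets of Nrf2. Without control replicate 1 the counts were 12 lower and 2 higher. At MCT 270 none of the 28 was called, nor was any gene tested. An unadjusted limma p under 0.05 was found for 12 of the 28, against 18.6% of all genes. The list median there was 0.41 against -0.02 over all genes. As given above, 25 of the 28 were also lower in control replicate 1.

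Of 14 factors known to act on Cyp2a4 and Cyp2a5, 2 rose and 3 fell at MCT 330, counts near the shares of all genes. Hnrnpa1, an RNA-binding protein that stabilises Cyp2a5 mRNA, rose by 2.16 ± 0.26 (adjusted p = 0.00980), and Nfe2l2, which encodes Nrf2, by 1.31 ± 0.20 (adjusted p = 0.0141). The hepatocyte factor Hnf4a (-1.06 ± 0.22, adjusted p = 0.0255), Tef (-0.88 ± 0.19, adjusted p = 0.0273) and Creb1 (-0.87 ± 0.19, adjusted p = 0.0285) fell. Hnrnpa1 lay at 2.05 ± 0.21 at MCT 270 (adjusted p = 0.0811), where none of the 14 was called.

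Dbp, Tef and Hlf encode the PAR bZIP factors, clock-controlled regulators of P450 genes; Dbp and Hlf were singled out after their values were seen. Dbp stood at levels of 2.72, 2.12 and 2.08 in the controls, 4.72, 4.93 and 4.91 at MCT 270, and 2.14, 2.09 and 2.12 at MCT 330. Like Cyp2a4, it was highest on the MCT 270 arrays, but at MCT 330 it lay within the control range. Both MCT 270 samples lay above both control samples for 25.4% of all genes. Whether PAR bZIP factors act on Cyp2a4 in these livers was not tested. Tef stood at 4.07, 4.01 and 4.02 in the controls, 4.86, 4.78 and 4.77 at MCT 270, and 3.15, 3.17 and 3.15 at MCT 330. From MCT 270 to MCT 330 all 3 fell, Dbp by 2.71 ± 0.32 (adjusted p = 0.0204), Tef by 1.66 ± 0.19 (adjusted p = 0.0204) and Hlf by 1.26 ± 0.26 (adjusted p = 0.0338). Against the control at MCT 270, Dbp lay at 2.41 ± 0.26 (adjusted p = 0.0811), Tef at 0.78 ± 0.15 (adjusted p = 0.120) and Hlf at 0.37 ± 0.21 (adjusted p = 0.409).

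**Figure D4:**
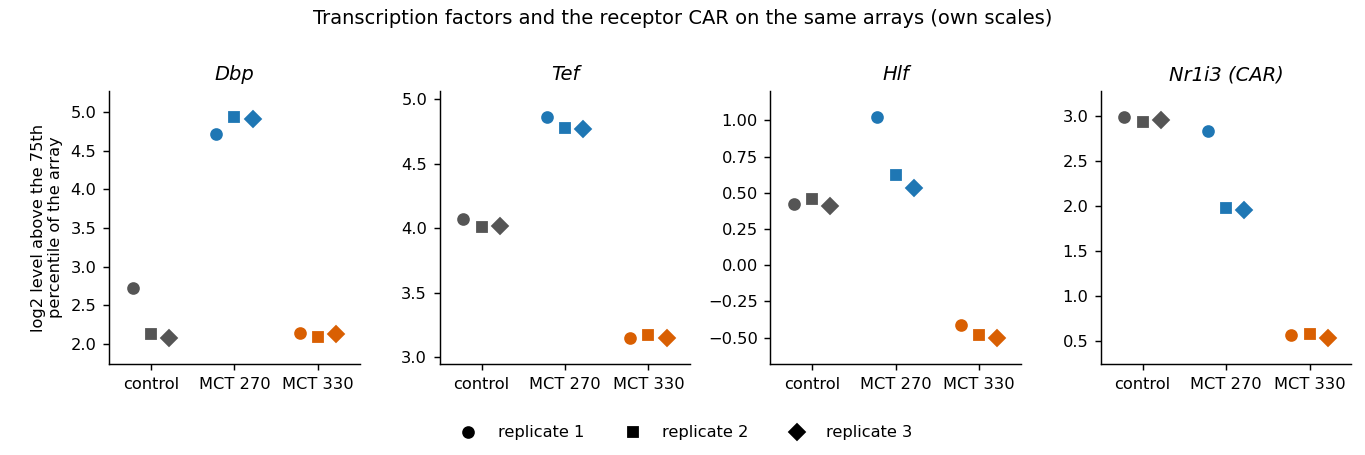
Level of Dbp, Tef, Hlf and Nr1i3 (CAR) on each of the 9 arrays, as log2 of the signal relative to the 75th percentile of the array, with a separate vertical scale in each panel. Dbp is highest at MCT 270 (4.72 to 4.93) and near the controls at MCT 330, while Nr1i3 is lowest at MCT 330 (0.54 to 0.58).

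Of the 7 neighbouring P450 genes of the cluster, 6 were tested; Cyp2b19 was not well above background in any group. Cyp2a22, next to Cyp2a5, stood at -2.59, -0.55 and -0.57 in the controls, -0.02, 0.20 and 0.26 at MCT 270, and -1.92, -2.01 and -2.0 at MCT 330. Cyp2g1, on the other side of Cyp2a5, stood at -1.61, -0.20 and -0.13, then 0.31, 0.82 and 0.79, then -1.45, -1.46 and -1.52. Both were low in control replicate 1 and highest at MCT 270, as was Cyp2b9. Neither was called in any comparison by limma (Cyp2g1 at MCT 270: 1.45 ± 0.52, adjusted p = 0.25). Cyp2t4 fell at MCT 330 (-1.13 ± 0.23, adjusted p = 0.0245), and Cyp2b23 was lower at MCT 330 than at MCT 270 (-1.22 ± 0.26, adjusted p = 0.0362). Cyp2f2, a periportal naphthalene-oxidising enzyme, lay at -0.79 ± 0.28 at MCT 330 (adjusted p = 0.0906).

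The machinery that serves P450 enzymes was measured on the same arrays. Of 8 electron donors and haem carriers, 3 fell at MCT 330, against 23.9% of all genes, the cytochrome b5 genes Cyb5b (-1.13 ± 0.21, adjusted p = 0.0201) and Cyb5a (-0.94 ± 0.23, adjusted p = 0.0389) and the haem carrier Pgrmc2 (-0.94 ± 0.24, adjusted p = 0.0431). P450 reductase (Por) lay at -1.27 ± 0.40 (adjusted p = 0.0688). Of 13 genes of haem synthesis and breakdown, 1 rose and 2 fell, which again is near the shares of all genes. The haem-degrading Hmox1 rose by 2.82 ± 0.28 (adjusted p = 0.00877), and Cpox (-1.47 ± 0.18, adjusted p = 0.0104) and Blvrb (-0.72 ± 0.19, adjusted p = 0.0424) fell. Alas1, which limits the rate of haem synthesis, lay at -0.60 ± 0.53 (adjusted p = 0.419).

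Growth hormone signalling is known to set the sex bias of Cyp2b9, Cyp2b13 and Cyp2a4. Of 10 of its genes 3 fell at MCT 330, near the share of all genes, so that this count is not a result about the pathway. The receptor Ghr fell by 1.72 ± 0.42 (adjusted p = 0.0367), Igfals by 1.40 ± 0.39 (adjusted p = 0.0495) and Igf1 by 0.88 ± 0.22 (adjusted p = 0.0416). Of 22 male-biased genes 11 fell at MCT 330, against 23.9% of all genes, including the anion transporter Slco1a1 (-5.56 ± 0.57, adjusted p = 0.00878) and Cspg5 (-2.44 ± 0.30, adjusted p = 0.0102), with a list median of -2.0. Of 17 other female-biased genes 2 fell, Tox (-2.07 ± 0.47, adjusted p = 0.0315) and Cyp3a16 (-1.64 ± 0.34, adjusted p = 0.0267), with a list median of -0.80. Without control replicate 1 these counts were 9 and 8.

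Inflammatory signals are known to lower hepatic P450 mRNA. The 15 genes listed here are cytokines, receptors, signalling factors and acute-phase genes, and not all of them are such signals. Of these, 5 rose and 1 fell at MCT 330, against 9.50% and 23.9% of all genes. The acute-phase gene Lcn2 rose by 5.27 ± 0.77 (adjusted p = 0.0131). The cytokines Il1b and Tnf rose by 1.68 ± 0.28 (adjusted p = 0.0163) and 1.41 ± 0.22 (adjusted p = 0.0145). The cytokine Il6 lay at -0.09 ± 0.32 (adjusted p = 0.845), and the receptor gene Il6ra fell by 3.01 ± 0.29 (adjusted p = 0.00877). Without control replicate 1 the count that rose was 3. At MCT 270 none of these 15 was called, nor any gene of the other lists, because no gene tested was called there.

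Cell type markers differed at MCT 330. None was called at MCT 270, nor was any gene tested. There an unadjusted limma p under 0.05 was found for 18.6% of all genes. Pericentral markers had it in 9 of 10 (median -1.38) and sinusoidal endothelial markers in 9 of 10 (median -1.26). Kupffer and stellate markers had it in 6 of 8 each (medians -0.70 and -0.38). It was found for 3 of 11 periportal, 1 of 9 general hepatocyte and 4 of 7 recruited monocyte markers. Neutrophil and cholangiocyte markers had 0 and 2 of 7. The summed level of 10 pericentral hepatocyte markers, the zone in which CYP2A5 and CYP2B10 are mainly found, was 484 to 530.5 times the 75th percentile in the controls, 267 to 408 at MCT 270 and 91.7 to 95.9 at MCT 330, and 10 of 10 fell at MCT 330. For 11 periportal markers the sums were 619 to 752, 547 to 705 and 320.1 to 329, and 4 fell. The 9 general hepatocyte markers summed to 2504 to 2868, 2203 to 2700 and 1952 to 2301, and 2 fell. For both of these lists the control and MCT 270 sums overlap. A sum follows its brightest probes. In the pericentral sum Cyp2e1 weighs most, at levels of 8.37, 8.48 and 8.32 in the controls. Against 23.9% of all genes lower and 9.50% higher at MCT 330, 9 of 10 sinusoidal endothelial, 5 of 8 Kupffer and 5 of 8 stellate markers fell, 1 stellate marker rose, and 6 of 7 neutrophil and 5 of 7 recruited monocyte markers rose; of 7 cholangiocyte markers 1 rose and 1 fell. The part of cell composition in the members' values was not tested.

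Among 16026 named genes, the 3 with the most similar pattern over the 5 samples were found for each member by the Euclidean distance between log2 levels centred on their mean. Those reported for Cyp2b10 were Plag1 (0.76) and Otos (0.85), where the whole pattern of Cyp2b10 has a length of 2.46. The nearest to Cyp2a4 were Tmem121b (0.42), Lrtm1 (0.44) and Pax7 (0.59), against a length of 1.98. Cyp2b13 was nearest to Akap5 (0.24), B3gntl1 (0.48) and Anks1b (0.54), against 1.77, and Cyp2b9 to Mmd2 (0.87), Cpne9 (1.03) and Crebbp (1.03), against 3.08. For Cyp2a12, whose pattern was only 0.39 long, Klhdc10 and Epn1 lay at 0.04 and Rpl36al at 0.06. Some of these neighbours were dim, such as Tmem121b (-7.81 to -5.36) and Cpne9 (-7.34 to -4.32), while others, such as Epn1 (4.59 to 5.16), were not. A gene was kept when it was well above background in some group, so the low values of dim genes may lie near background.

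Among the members themselves the closest patterns were those of Cyp2a4 and Cyp2b13, at a distance of 1.40, and of Cyp2a4 and Cyp2b9, at 1.54. Cyp2b9 and Cyp2b13 were 2.52 apart, and Cyp2b9 and Cyp2a12 farthest, at 3.02. With 5 samples these distances are a description.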

How the data were processed

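Liver mRNA of 3 groups was measured on 9 single-colour arrays. The deposited files give, per the file headers, the intensity of each spot after background subtraction and detrending within the array by Agilent Feature Extraction 11.0.1.1. The deposited quality flags mark outlier spots and spots well above background. From the 43020 noncontrol spots, log2 intensity relative to the 75th percentile of the same array was computed here; outlier spots, and 173 bright spots of MCT 330 replicate 1 over 1 log2 unit from both other arrays of its group, were set to missing, the latter by a rule set after the data were seen. Repeated spots were averaged. A probe was tested if some group had it well above background on every array, and the brightest such probe stood for its gene (24814 genes). Of 33258 systematic names 21464 matched a RefSeq symbol. Arrays of a group that differed by no more than repeated spots (296 probes) were averaged, which left 5 samples.

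A single limma 3.58.1 model (R 4.3.3; lmFit, eBayes, 2 residual degrees of freedom) gave all comparisons, and a gene was called where the Benjamini-Hochberg adjusted p was under 0.05; the procedure was tested on simulated data. Precision is limited by the number of arrays. The members, gene lists and tests were chosen with earlier results of these data known. Named genes are all members, up to 4 genes per list with the smallest p at MCT 330 against control, and 3 nearest genes per member; others were named after their values were seen, and 1 gene that the rule names is not reported here. The alternatives were other groupings of arrays, scalings, filters and probe rules, scan blocks, and leaving out each array. Upstream sequences came from RefSeq (GRCm38.p6) and were aligned with Biopython. The miRNA arrays were not analysed here.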

Additional observations from a re-analysis of the deposited data

How the results depend on the processing

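Of 305 values of the members under 21 alternatives, 276 kept their direction and their side of the threshold, 23 kept the direction and passed it, and 6 changed sign. Cyp2a12 against control turned to 0.09 (MCT 270) and 0.08 (MCT 330) with quantile normalization and to 0.19 and 0.14 with normexp and quantile normalization. Without control replicate 1, Cyp2b10 at MCT 270 turned to -0.80 and Cyp2b9 at MCT 330 to -0.82. Of 400 list counts, 307 stayed within 1.5 times, 70 rose and 23 fell.

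The count of members called (0 in each comparison: MCT 270 against control, MCT 330 against control, and MCT 330 against MCT 270) became 1, 1 and 2 with 9 arrays as 9 samples, where the counts of all genes called went from 0, 8299 and 5479 to 9604, 18138 and 16199. With MCT 330 replicate 1 as its own sample, 1, 0 and 2 members and 1751, 13824 and 11321 genes were called. With normexp 1, 1 and 1 members (Cyp2a4 each time: 2.08, 1.00 and -1.09) and 505 genes at MCT 270 were called. With scan as a block in the 9-array fit, 1 member and 7112 genes were called at MCT 270; with scan as a random block, chosen after seeing the data, 1, 2 and 2 members and 8930, 18847 and 17065 genes. Without a filter on dim probes 3677 genes were called at MCT 330 and 0 between the doses, over 32442 genes tested; with probes well above background on all 9 arrays 408 were called at MCT 270. The cause of these changes was not tested.

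Leaving out 1 array, members called ranged from 0 to 0, 0 to 1 and 0 to 2, the highest without control replicate 1, which leaves 1 residual degree of freedom. The counts of all genes ranged from 0 to 0, 4966 to 8435 and 0 to 7330, the lowest of the latter pair without MCT 270 replicate 1. Cyp2b10 at MCT 270 ranged from -0.80 to 0.69 and Cyp2b9 at MCT 330 from -0.82 to 0.64.

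The replicate numbers do not pair the arrays: deviations from the group means of same-numbered arrays correlated at -0.04 to 0.04. With the replicate block in the 9-array fit, 1, 1 and 2 members and 9380, 18002 and 16029 genes were called, against 9604, 18138 and 16199 without it.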
